A study of Mus musculus with 2 samples.

Results

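The genes of the epidermal growth factor (EGF) receptor family and their ligands were examined in kidneys of mice at postnatal day 3, in which nephrons are still being formed. The family was taken as 4 receptor genes (Egfr, Erbb2, Erbb3 and Erbb4) and 6 ligand genes (Egf, Tgfa, Hbegf, Areg, Ereg and Btc). Every probe set of the array annotated to exactly 1 of these symbols was included, which gave 21 of 45037 probe sets, 11 for receptors and 10 for ligands, for 10 of the 20660 genes named on the array. A sample labelled B6C3Fe a/a-bpck mutant, from mice with polycystic kidney disease, was set against a wild-type kidney sample of the same age. The RNA of either sample was hybridised to 1 Affymetrix Mouse 430 2.0 array, on which several short probes together form a probe set for a transcript. The labels give tissue, genotype and age for both samples, name no strain for the wild type and state neither the mutated gene, the sex nor the number of animals behind a sample. With 1 array per group there was no spread between animals and no test, so every difference describes these 2 samples only.

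The receptors of this family are transmembrane tyrosine kinases that pair when a ligand binds and signal through the Ras, ERK and PI3 kinase pathways. The ligands are made as membrane-anchored precursors, released by metalloproteases, and most act on the cell that made them or on its neighbours. Erbb2 binds no ligand of its own and Erbb3 has little kinase activity, so both work mainly as partners of the other receptors. In the kidney, the signal drives growth of tubule cells and repair after injury, and in cystic kidneys the EGF receptor has been described on the side of the cell that faces the cyst.

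The mutant kidney had higher signal for Egfr, the receptor shared by all 6 ligands, on the 2 brightest of its 7 probe sets, and for Btc, the ligand betacellulin, on both of its probe sets. The next brightest Egfr probe set, 1460420_a_at, was lower in the mutant array, so no direction is given for Egfr as a gene. Egf and Hbegf were higher by smaller amounts, Erbb3 and Tgfa were close to level between the arrays, and Erbb2 was lower. Erbb4, Areg and Ereg were too dim in both arrays for a direction. The largest differences among the brighter probe sets were on probe sets of Egfr and Btc, so the sequence upstream of each gene is shown. It is given as the 250 bases before the transcription start of RefSeq (build GRCm38.p6), 5' to 3' on the gene's strand. Capitals mark matches on either strand to the GC box GGGCGG or to the TATA box, for which the letters TATAAA were searched. The site of the AP-1 transcription factors was searched as TGANTCA. The site of the TEAD factors, partners of the growth regulator Yap, was searched as CATTCC.
Egfr, chr11:16751953-16752202, plus strand: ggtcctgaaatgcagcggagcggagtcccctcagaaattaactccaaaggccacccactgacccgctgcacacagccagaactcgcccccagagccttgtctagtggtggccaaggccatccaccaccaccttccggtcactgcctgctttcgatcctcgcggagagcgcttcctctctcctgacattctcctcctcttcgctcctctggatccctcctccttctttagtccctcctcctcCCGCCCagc
Btc, chr5:91402995-91403244, minus strand: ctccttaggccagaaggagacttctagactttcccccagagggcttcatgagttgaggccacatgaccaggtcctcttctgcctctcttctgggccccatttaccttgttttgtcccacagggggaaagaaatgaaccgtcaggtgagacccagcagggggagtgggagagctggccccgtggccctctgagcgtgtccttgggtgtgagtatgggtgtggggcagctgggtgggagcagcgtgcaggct
The Egfr window held 1 GC box next to the start and none of the other 3 motifs, and the Btc window held none of the 4. Among 32851 promoters in the table, 32.7% held a GC box in the same window, 12.4% a TATA box, 6.75% an AP-1 motif and 12.6% a TEAD motif. Bases G and C made up 60.8% of the Egfr window and 59.6% of the Btc window, against a median of 52.4% over all promoters. Such a share was not particular to these genes: it was 69.2% for Tgfa, 66% for Erbb2 and 57.2% for Areg. Lower shares were found for Erbb4, 54%, and for Egf, 52% and 50.4%. The windows of Tgfa and Areg also held GC boxes. The Egfr window held 11 CpG pairs and the Btc window 4, against a median of 6 over all promoters. A match or its lack describes letters only.

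Intensities were used as deposited, and each was compared between the arrays within its own probe set, because different probe sets do not share a scale. A probe set was kept if its intensity reached 16.53, the median of all values, in the brighter array. Values under 4.2, the 20th percentile, were raised to that floor before log2 was taken. Of the 21 member probe sets, 14 passed, for 7 of the 10 genes, and 23491 probe sets passed in all. The Egfr probe set 1451530_at passed only through the mutant array and so had to be higher there. The Egfr probe set 1432647_at passed only through the wild-type array and so had to be lower in the mutant array.

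Whole-array values were close. Intensities summed to 5175900 in the mutant array and 5173132 in the wild-type array, and their medians were 16.13 in the mutant array and 16.97 in the wild-type array. The kidney markers Umod and Slc12a1 of the thick ascending limb read 1877 and 1059 in the mutant array, against 1981 and 1127 in the wild-type array. Xist, the RNA of the inactive X chromosome, read 1113 in the mutant array and 4.67 in the wild-type array. The Y-linked Ddx3y read 84.2 in the mutant array and 394 in the wild-type array. Adrenal and chromaffin markers above the filter had intensities that summed to 65.8 in the mutant and 653.8 in the wild type. All 9 of them passed the filter only through the wild-type array, so their count of 9 lower was fixed by the filter. Sex-linked and adrenal transcripts thus differed between the samples along with genotype, and their part in the results below was not tested. In whole kidney, fewer cells of a type and less RNA per cell cannot be told apart.

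**Figure D1:**
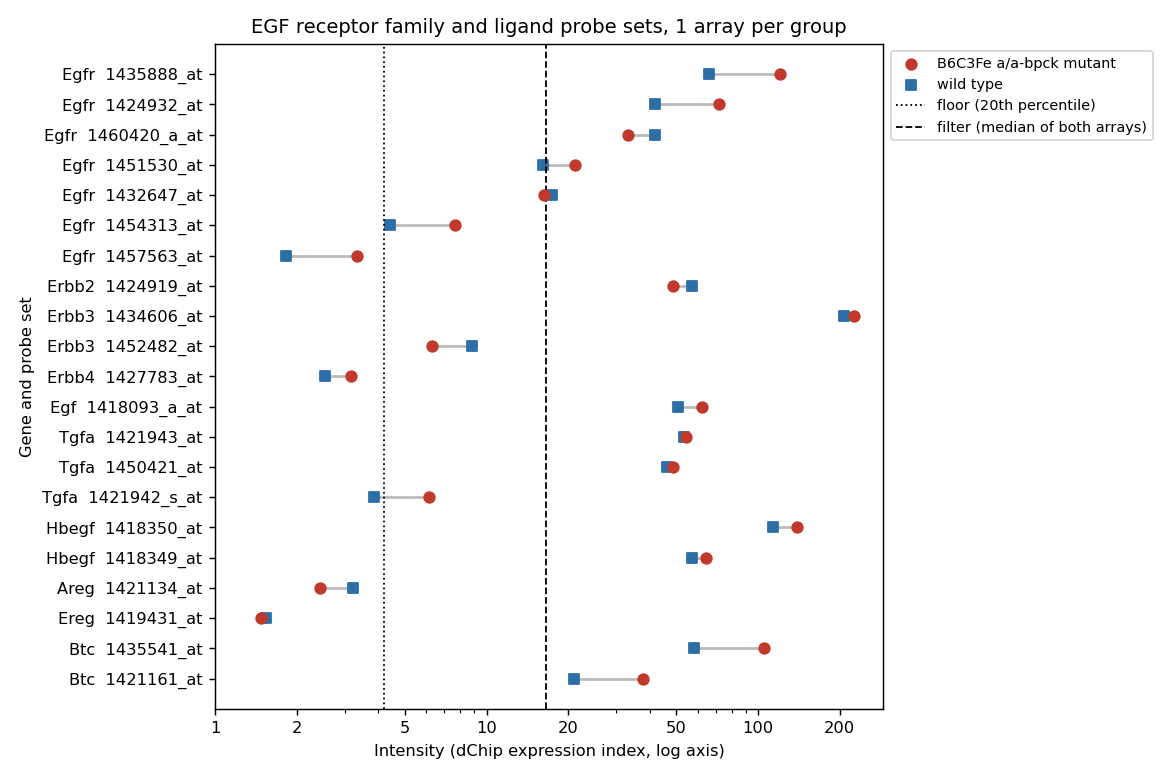
Intensity (dChip expression index, log axis) of the 21 probe sets of the family, with a red circle for the mutant array and a blue square for the wild-type array joined by a grey line. Btc and the 2 brighter Egfr probe sets show the mutant circle well to the right, Erbb2 shows it to the left, and Erbb4, Areg and Ereg lie left of the dotted floor at 4.2.

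Egfr was measured by 7 probe sets made from 5 target sequences. The probe set 1435888_at read 120.1 in the mutant array and 65.8 in the wild-type array, 1.82-fold higher in the mutant. The probe set 1424932_at read 72.1 in the mutant array and 41.6 in the wild-type array, 1.73-fold higher. Differences at least this high were found in 0.796% and 1% of all probe sets above the filter. The authors' deposited table gives bounds of 1.73 to 1.92 and of 1.55 to 1.96 for these 2 folds. Such bounds hold no variation between animals. The standard errors deposited beside them hold 1 quantity per pair of arrays, so they are not separate estimates for each array.

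The other 3 Egfr probe sets above the filter had smaller differences or the opposite direction. The probe set 1451530_at, made from the same target sequence as 1424932_at, read 21.2 in the mutant array and 16.2 in the wild-type array, 1.31-fold higher. In contrast, 1460420_a_at read 33.3 in the mutant array and 41.8 in the wild-type array, a log2 difference of -0.33, with bounds of -1.18 to -1.33 as signed folds in the authors' deposited table. The probe set 1432647_at read 16.2 in the mutant array and 17.4 in the wild-type array, and its bounds in the authors' deposited table include no difference. The 5 probe sets above the filter therefore split into 3 higher and 2 lower, and their log2 differences ran from -0.33 to 0.87. The directions of 1451530_at and 1432647_at were fixed by the filter, since each passed through 1 array only. The remaining 2 Egfr probe sets were under the filter: 1454313_at read 7.67 in the mutant array and 4.42 in the wild-type array, 1.74-fold higher though close to the floor, and 1457563_at lay under the floor in both arrays. The SD of the log2 difference between the 5 Egfr probe sets was 0.53, against a median of 0.18 for the 156 genes with as many probe sets above the filter, and 1.92% of those genes had an SD at least as large. Which Egfr transcripts each probe set detects is not given in the sources used here, so its direction is stated per probe set and not for the gene.

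Erbb2, the ligand-free partner receptor, had 1 probe set and was the only member gene above the filter that was lower in the mutant array on its brightest probe set. It read 48.5 in the mutant array and 56.9 in the wild-type array, 1.17-fold lower. Erbb3, the partner with little kinase activity, read 225 in the mutant array and 207 in the wild-type array on 1434606_at, 1.09-fold higher. Its other probe set, 1452482_at, stayed under the filter and pointed the other way, with 6.31 in the mutant array and 8.86 in the wild-type array. Erbb4, a receptor for the neuregulins and for Btc and Hbegf, read 3.18 in the mutant array and 2.54 in the wild-type array, both under the floor. Among the receptor probe sets above the filter, 4 were higher and 3 lower in the mutant array (median log2 difference 0.12). Of these, Egfr 1451530_at and Egfr 1432647_at had a direction fixed by the filter.

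**Figure D2:**
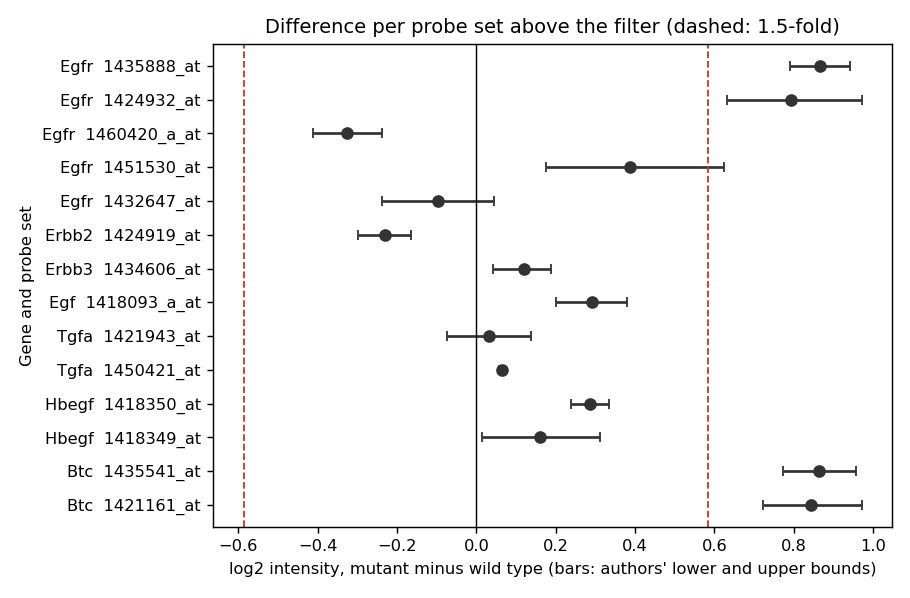
Difference in log2 intensity, mutant minus wild type, for the 14 probe sets above the filter, with bars for the lower and upper bounds of the authors' deposited fold and dashed lines at 1.5-fold. Both Btc probe sets and 2 Egfr probe sets lie right of the upper dashed line with their bounds, while Egfr 1460420_a_at and Erbb2 lie left of 0.

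Btc, a ligand of both Egfr and Erbb4, was the ligand with the largest difference among those above the filter. Its probe set 1435541_at read 105 in the mutant array and 57.9 in the wild-type array, 1.82-fold higher. The probe set 1421161_at, made from another target sequence, read 37.7 in the mutant array and 21.1 in the wild-type array, 1.79-fold higher. Both measurements of Btc thus gave nearly the same ratio: their log2 differences were 0.86 and 0.84, with an SD of 0.015. Of the 3302 genes with 2 probe sets above the filter, 8.06% had an SD at most as large, and the median was 0.11. The authors' deposited table gives bounds of 1.71 to 1.94 and of 1.65 to 1.96 for the Btc folds.

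Btc lies next to Areg, Ereg and Epgn on mouse chromosome 5 in GRCm38.p6, with no other protein-coding gene between them. Its neighbours were dim. Areg, amphiregulin, read 2.44 in the mutant array and 3.23 in the wild-type array. Ereg, epiregulin, read 1.48 in the mutant array and 1.54 in the wild-type array, and all 4 values lie under the floor. Epgn, epigen, a further ligand of Egfr, read 11.3 in the mutant array and 5.11 in the wild-type array, under the filter in both. Among these neighbouring ligand genes, Btc alone passed the filter, and no fold is given for Areg or Ereg.

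Egf, the ligand made in the kidney mainly by the thick ascending limb and the distal convoluted tubule, read 62.3 in the mutant array and 50.9 in the wild-type array, 1.22-fold higher. Markers of the segments that make it are given beside it, and 48.0% of all genes above the filter were higher in the mutant array. Of 10 distal convoluted tubule markers above the filter, 8 were lower in the mutant array, with intensities that summed to 9205 in the mutant and 9892 in the wild type. Slc12a3, the thiazide-sensitive cotransporter, read 194 in the mutant array and 307 in the wild-type array, and Slc8a1, a sodium-calcium exchanger, read 326 in the mutant array and 521 in the wild-type array. Kl and Fxyd2, picked out after their values were seen, were the 2 that were higher. They read 683 and 2578 in the mutant array, against 570 and 2381 in the wild-type array. Of 10 thick ascending limb markers, 6 were lower and 4 higher, a split near that of all genes, with intensities that summed to 4506 in the mutant and 4676. in the wild type With array medians set equal, 7 of the distal convoluted tubule markers and 5 of the thick ascending limb markers were lower. A fold of 1.22 or more in this direction was not rare: 9.01% of probe sets above the filter had a log2 difference at least as high as that of Egf.

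Hbegf, the heparin-binding ligand of Egfr and Erbb4, was higher on both probe sets, which share a target sequence. The probe set 1418350_at read 139 in the mutant array and 114 in the wild-type array, 1.22-fold higher, and 1418349_at read 64.1 in the mutant array and 57.3 in the wild-type array, 1.12-fold higher. Tgfa, transforming growth factor alpha, a ligand of Egfr, was within 1.05-fold on its 2 probe sets above the filter. These read 54.5 and 48.5 in the mutant array, against 53.3 and 46.4 in the wild-type array. Its dim probe set 1421942_s_at, from the same target sequence, read 6.15 in the mutant array and 3.85 in the wild-type array, of which the second is below the floor, so it was at least 1.46-fold higher. All 7 ligand probe sets above the filter were higher in the mutant array (median log2 difference 0.29), and they belong to 4 genes. Of all probe sets above the filter 45.9% were higher, or 61.2% with array medians set equal. The 7 include the 2 Tgfa probe sets that were close to level. For Tgfa 1421943_at the bounds in the authors' deposited table, 0.95 to 1.1, include no difference.

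Over all 14 member probe sets above the filter, 4 exceeded wild type by 1.5-fold or more, which is 28.6%, against 2.25% of all probe sets above the filter. None was 1.5-fold or more below wild type, against 3.85%. The 4 were the 2 Btc probe sets and 2 of the 5 Egfr probe sets, so they stand for 2 genes and are not independent of each other. In all, 11 were higher and 3 lower (median log2 difference 0.22), whereas 45.9% of all probe sets above the filter were higher and their median was -0.02. The 11 include Egfr 1451530_at and the 3 include Egfr 1432647_at, whose directions were fixed by the filter. Without Egfr and Btc, 6 of the 7 probe sets that were left were higher, with a median of 0.12 and none past 1.5-fold. With array medians set equal, 61.2% of all probe sets were higher, and the member split stayed at 11 higher and 3 lower. At a threshold of 2-fold no member passed in either direction, against 0.528% of all probe sets above the filter on the higher side and 0.741% on the lower side. On the brightest probe set alone, 6 of the 7 member genes were higher, against 48.0% of all genes, with Egfr counted by 1435888_at although its probe sets differ in direction.

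**Figure D3:**
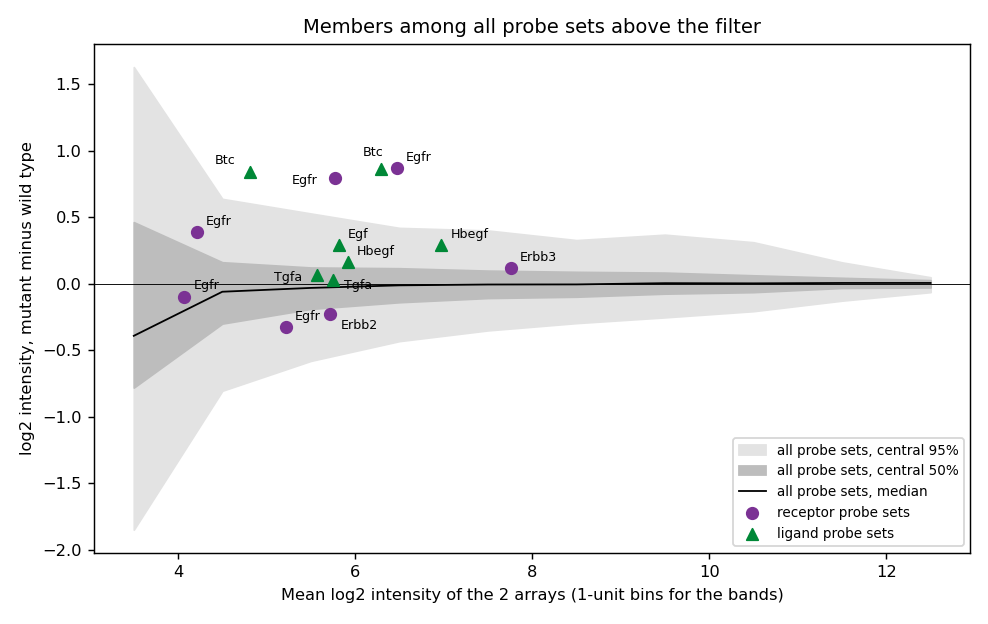
Difference in log2 intensity, mutant minus wild type, against mean log2 intensity for the 14 member probe sets (circles for receptors, triangles for ligands), over grey bands that hold the central 95% and 50% of all probe sets above the filter in bins of 1 log2 unit. The 2 Btc and 2 Egfr probe sets past 1.5-fold lie above the outer band of their own brightness bins, and the other 10 lie inside it.

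Differences of all probe sets were wider at low intensity, so the members were also set against probe sets of like brightness. Among the 16793 probe sets above the filter within the brightness range of the members, 1.85% exceeded wild type by 1.5-fold or more. In the bin that holds Egfr 1435888_at and Btc 1435541_at, the central 95% of log2 differences ran from -0.43 to 0.42, against 0.87 and 0.86 for these probe sets. The authors' file sets its own criterion, a lower bound of the fold of at least 1.5 and intensities at least 20 apart. Read in this way, it was met by 3 of the 21 members, Egfr 1435888_at, Egfr 1424932_at and Btc 1435541_at, and by 0.593% of all probe sets. The authors' deposited table states that 354 genes satisfied its filter, while 267 probe sets met it as read here.

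Markers of several epithelial and blood-derived cell types also differed between the arrays, and are set against the 48.0% of all genes that were higher, or 61.2% of all probe sets with array medians set equal. Of 10 collecting duct principal cell markers above the filter, 8 were higher in the mutant array, with intensities that summed to 4869 in the mutant and 3926. in the wild type Avpr2, the vasopressin receptor of those cells, had the largest difference, with 217 in the mutant array and 128 in the wild-type array. The water channel genes of the list, picked out after their values were seen, did not share a direction. Aqp2 and Aqp3 were the 2 markers that were lower, with 681 and 158 in the mutant array, against 843 and 182 in the wild-type array. Aqp4 was 1.56-fold higher, with 476 in the mutant array and 305 in the wild-type array. Of 11 proximal tubule markers, 7 were higher, with intensities that summed to 9038 in the mutant and 7855 in the wild type, and Slc3a1, a subunit of an amino acid transporter, had the largest difference, with 845 in the mutant array and 511 in the wild-type array. With array medians set equal, 7 of the 11 were again higher, near the 61.2% of all probe sets, though that share counts probe sets and not genes. The glucose transporter gene Slc5a2, picked out after its values were seen, was lower, with 244 in the mutant array and 286 in the wild-type array. Of 10 macrophage markers, 8 were higher, with intensities that summed to 1225 in the mutant and 978 in the wild type. The receptor gene Csf1r had the largest difference, with 326 in the mutant array and 214 in the wild-type array. Other macrophage markers, picked out after their values were seen, were close to level. Aif1 and C1qa were the 2 that were lower, both by 1.01-fold, and C1qb was 1.02-fold higher. Podocyte markers went the other way, with 8 of 8 lower and intensities that summed to 1880 in the mutant and 2387 in the wild type, and with 7 of 8 lower when array medians were set equal. The 8 include Cd2ap, which was close to level, with 551 in the mutant array and 554 in the wild-type array. The part of these shifts in the Egfr and Btc differences was not tested.

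The other genes of the pathway were described through lists, each gene by its brightest probe set, over genes above the filter. Of all 13146 such genes, 2.01% exceeded wild type by 1.5-fold or more and 2.57% lay below it by as much, and their median log2 difference was -0.01. Among the other ligands of these receptors, the neuregulin genes Nrg1 to Nrg4 and Epgn, only Nrg2 passed the filter, and only through the wild-type array. Nrg2, which acts through Erbb3 and Erbb4, read 16.0 in the mutant array and 25.9 in the wild-type array, 1.62-fold lower, and a gene kept in that way had to be lower. Nrg1, which encodes the first known neuregulin, read 10.5 in the mutant array and 7.29 in the wild-type array, under the filter.

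Genes that shed or carry the ligands stayed within 1.5-fold on their brightest probe sets. Of 11 above the filter 6 were higher and 5 lower (median log2 difference 0.10.) Rhbdl2, a rhomboid protease, was 1.26-fold lower, Bace1, an aspartic protease, 1.23-fold lower, and Adam10, the metalloprotease that releases Btc and Egf, 1.12-fold lower. The other Adam10 probe set above the filter had a log2 difference of -0.70. Timp3, an inhibitor of such metalloproteases, read 754 in the mutant array and 672 in the wild-type array, 1.12-fold higher. Adam17, the metalloprotease that releases Tgfa, Hbegf and Areg, was picked out after its values were seen and read 231 in the mutant array and 216 in the wild-type array. The log2 differences of its 3 probe sets lay between -0.34 and 0.10.

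The adaptors and kinases that carry the signal were split much as all genes were, of which 48.0% were higher in the mutant array. Of 34 genes, all above the filter, 18 were higher and 16 lower in the mutant array (median log2 difference 0.00). With array medians set equal, 21 were higher and 13 lower, while 61.2% of all probe sets were higher. Pik3cb, a catalytic subunit of PI3 kinase, was the only one past 1.5-fold, with 23.1 in the mutant array and 15.2 in the wild-type array, and it passed the filter only through the mutant array. Among the 33 genes above the filter in both arrays none was past 1.5-fold on its brightest probe set. The log2 differences of the 5 Araf probe sets above the filter ran from -0.45 to 0.59, of which the highest is past 1.5-fold. Pik3r1, a regulatory subunit of the same enzyme, was 1.32-fold lower, with 261 in the mutant array and 343 in the wild-type array, although the log2 differences of its 4 probe sets lay between -0.40 and 0.12. Rps6ka3, a kinase downstream of ERK, was 1.21-fold lower, and Plcg1, a phospholipase recruited by the receptor, 1.16-fold lower.

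Inhibitors and proteins of receptor turnover were divided evenly, 15 higher and 15 lower (median log2 difference -0.01). None was past 1.5-fold on its brightest probe set, though other probe sets of Errfi1 and Eps15 were. The 2 Errfi1 probe sets above the filter had log2 differences of -0.60 and -0.25, and the 3 of Eps15 ran from -0.80 to 0.20. With array medians set equal, 19 were higher and 11 lower. Ptprj, a receptor phosphatase that acts on Egfr, read 165 in the mutant array and 127 in the wild-type array, a log2 difference of 0.38. Sh3kbp1, an adaptor in receptor uptake, had 115 in the mutant array and 91.7 in the wild-type array, while the log2 differences of its 3 probe sets lay between -0.22 and 0.32. Socs5, which promotes loss of Egfr, was 1.22-fold lower, and Rnf41, a ubiquitin ligase for Erbb3, 1.21-fold lower on its brightest probe set. The log2 differences of the 3 Rnf41 probe sets ran from -0.27 to 0.28.

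Transcripts known to be induced by EGF receptor signalling, many of which are also induced by serum and other stresses, were next. Of 23 above the filter 18 were higher and 5 lower in the mutant array (median log2 difference 0.13.) Of all genes above the filter 48.0% were higher. The 18 include Junb, Ier2, Elk3 and Mcl1, which differed by under 2% and were picked out after their values were seen. Past 1.5-fold were 4 higher and 1 lower. Ccn1, a secreted matricellular protein gene, read 376 in the mutant array and 183 in the wild-type array, 2.05-fold higher. The dimmer transcription factor genes Maff, Fos and Atf3 were 2.14-fold, 1.77-fold and 1.59-fold higher, with 29.2, 30.5 and 40.9 in the mutant array, against 13.6, 17.3 and 25.7 in the wild-type array. Maff passed the filter only through the mutant array. Ptgs2, the inducible cyclooxygenase gene, named because it was the exception, read 24.6 in the mutant array and 37.2 in the wild-type array, 1.51-fold lower. In the same list Ccnd1, the cyclin that EGF induces for cell cycle entry, was picked out after its values were seen and was within 1.07-fold.

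EGF also raises magnesium uptake in the distal convoluted tubule through the channel Trpm6. Of 8 genes of that process, 5 were higher and 3 lower in the mutant array (median log2 difference 0.02), and quantile normalization gave 4 higher and 4 lower. Slc12a3, described above, was the only gene past 1.5-fold. Trpm6, picked out after its values were seen, read 30.8 in the mutant array and 33.1 in the wild-type array. Cnnm2, a magnesium transport protein, was 1.10-fold lower, while Fxyd2, a subunit of the sodium pump, was 1.08-fold higher.

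**Figure D4:**
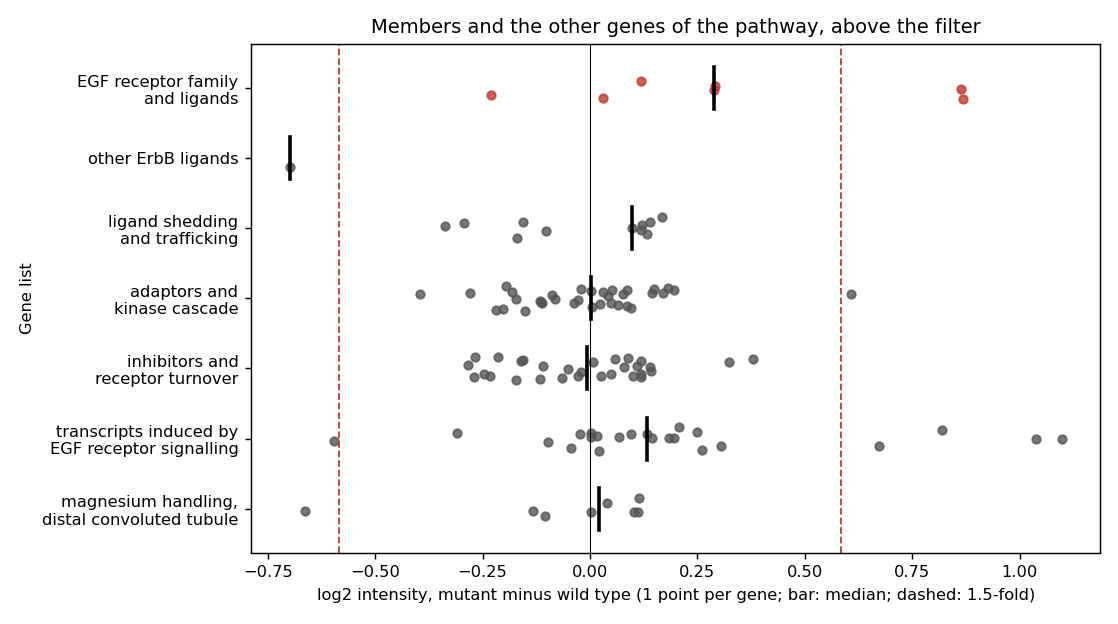
Difference in log2 intensity, mutant minus wild type, with 1 point per gene above the filter, for the receptor and ligand genes (red) and the 6 pathway lists (grey), a black bar at each median and dashed lines at 1.5-fold. Egfr and Btc lie right of the upper dashed line, the kinase and inhibitor lists centre on 0, and Maff, Ccn1, Fos and Atf3 form the right tail of the induced transcripts.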

How the data were processed

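RNA of 1 mutant and 1 wild-type kidney sample was measured on Affymetrix 430 2.0 arrays. Per the labels' protocols, TRIzol-extracted RNA, 100 ng per sample, was labelled with biotin, and per the series' design text dChip (version of December 2010) was used. The deposited values are intensity, the authors' dChip expression index per probe set on a linear scale. How background was handled and how the arrays were scaled is not given in the sources used here, and both bear on dim values. The authors also deposited a signed fold, mutant over wild type, with bounds, per the file headers. Intensities were equal in both deposited files for all 45037 probe sets. The standard errors hold 1 quantity per pair of arrays: over 16926 probe sets, intensity times error differed by at most 1% between arrays.

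Symbols came from the deposited annotation, updated through RefSeq for 37579 probe sets with 1 symbol. The 1467 with several and 5991 with none were left out of gene counts. Floor, filter and log2 were as stated with the results, computed in Python 3.11.15 with pandas 2.3.3, and the code for the 1.5-fold count was checked on simulated data, which is no test of the count. Members, lists and thresholds were chosen with earlier results of these data known. All members were named, with the 4 genes of each pathway list and up to 3 of each marker list that differed most, and fixed markers; 1 gene of the magnesium list is not reported here. With 2 arrays no gene could be named for likeness to a member. Precision is limited by having 2 arrays.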

Additional observations from a re-analysis of the deposited data

How the results depend on the processing

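The count of 4 member probe sets past 1.5-fold on the higher side became 2 with a pseudocount of 32 in place of the floor, 2 with a filter at the 75th percentile of intensity (83.51), where 4 members were left, and 0 at a threshold of 2-fold. The count of members lower was 0, and 1, an Egfr probe set, at the lowest fold threshold tried. The median log2 difference of 0.22 was 0.58 with the filter at the 75th percentile, over 4 probe sets. With the mean of its 5 probe sets in place of the brightest, the Egfr log2 difference was 0.32, and with the pseudocount those of Egfr and Btc were 0.64 and 0.61. Of the 7 member genes above the filter, those with a value kept their direction under setting array medians equal, quantile or loess scaling, other floors and filters, leaving out the probe set types _x_at, _s_at and _a_at, or the values of the series matrix. Erbb2, Egf and Tgfa had no value with the filter at the 75th percentile, nor Egf without those probe set types. Over these settings, the pseudocount and the mean of probe sets together, Erbb2 ran from -0.23 to -0.14, Egf from 0.19 to 0.36, Hbegf from 0.22 to 0.36, Erbb3 from 0.10 to 0.19 and Tgfa from 0.02 to 0.10. All 5 lists of more than 1 gene kept their median within 0.13 log2 units, the typical SD between probe sets of a gene, and Nrg2 had no value at the 75th percentile. No paired analysis was possible because each group has 1 sample. Erbb4, Areg and Ereg lay under the floor in both arrays, which limits what these arrays can show of them.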
